A study of Mus musculus with 2 samples.

Results

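The constant region of the immunoglobulin heavy-chain locus (Igh) was examined for DNA break ends in mouse splenic B cells. It was taken as chromosome 12, 113258001 to 113430000 (mm10), which runs from Igha, the constant gene of IgA, across all 8 constant genes to the J segments. The members were the 344 bins of 500 bp of this region on each strand, 688 of 9842990 such strand-specific bins on chromosomes 1 to 19. They were chosen by position alone, and each was counted in both libraries of the series. CD43-negative splenic B cells came from mice aged 4 to 8 weeks. The S-phase library was made from cells activated with anti-CD40 (1 µg/mL) and IL-4 (25 ng/mL) for 24 to 28 h, and the G1-phase library from quiescent cells cultured without either. Both titles carry the prefix ATR+c, which the labels do not spell out, and neither a strain nor the number of animals was taken from the labels. Each group is 1 library, so no test between the conditions was possible, and every ratio below compares these libraries only. END-seq reads broken DNA and gives no expression, so the labelled cell type could not be checked by marker genes.

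Class switch recombination replaces the constant gene of an antibody while keeping its variable part. It starts in the switch regions, long G-rich repeats that lie upstream of every constant gene except Ighd. Breaks in the donor switch region of Ighm and in an acceptor region are then joined, and the DNA between them is lost. In mouse B cells IL-4 together with CD40 signals is known to direct switching to IgG1 and IgE. END-seq ligates an adapter to broken ends, so each read marks an end. The strand of a read tells towards which side the DNA continues. Igh is transcribed from the minus strand, and upstream of a constant gene therefore means towards higher coordinates. The switch region of a gene was represented by the 5 kb upstream of its annotated 5′ end, called the switch-side span here, since no map of the repeats was used.

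Over the whole constant region the S-phase library held more break ends than the G1 library. There were 1429 S-phase and 1466 G1 reads. Scaled to the reads on chromosomes 1 to 19 (20543572 and 26889564), this was 69.6 and 54.5 reads per 1000000 (RPM), a ratio of 1.28 (95% counting interval 1.19 to 1.37). Many reads share a start, because the S-phase reads lay on 559 strand-specific positions and the G1 reads on 420. Counted by position the ratio was 1.27 (1.11 to 1.44). Such positions are closer to independent molecules than reads are, and both measures are given below. The ratio did not reach the 1.5-fold size used as a call, which 0.0429% of 13986 windows of 172 kb on chromosomes 1 to 19 passed by reads and 0.0143% by positions. A ratio at or above that of the region was seen in 3.47% of these windows by reads and in 4.88% by positions, around a median of 1.01. The S-phase level lay above 69.9% of windows and the G1 level above 18.3%, with medians of 65.1 and 64.5 RPM. By positions these shares were 81.9% and 33.6%. In G1 phase the region thus lay below the middle of all windows, and in S phase above it.

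The surroundings differed less between the libraries. The D and V part of Igh beyond the region (113430001 to 116009954) held 17745 S-phase and 23906 G1 reads, a ratio of 0.972 (0.953 to 0.991). Its D segments with the sequence between them stood at 1.01 (0.888 to 1.15). The 1 Mb below the region, on the Igha side, stood at 1.14 (1.10 to 1.17), and the 1 Mb beyond the last V gene at 1.04 (1.01 to 1.08). All of chromosome 12 outside the region stood at 0.985 (0.983 to 0.988). By reads the interval of the constant region lay wholly above those of all 5, but by positions it overlapped the intervals of the D segments, at 1.04 (0.845 to 1.28), of the Igha side, at 1.17 (1.10 to 1.23), and of the far side, at 1.08 (1.02 to 1.14). Whether the region differed from its neighbours was not tested.

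**Figure D1:**
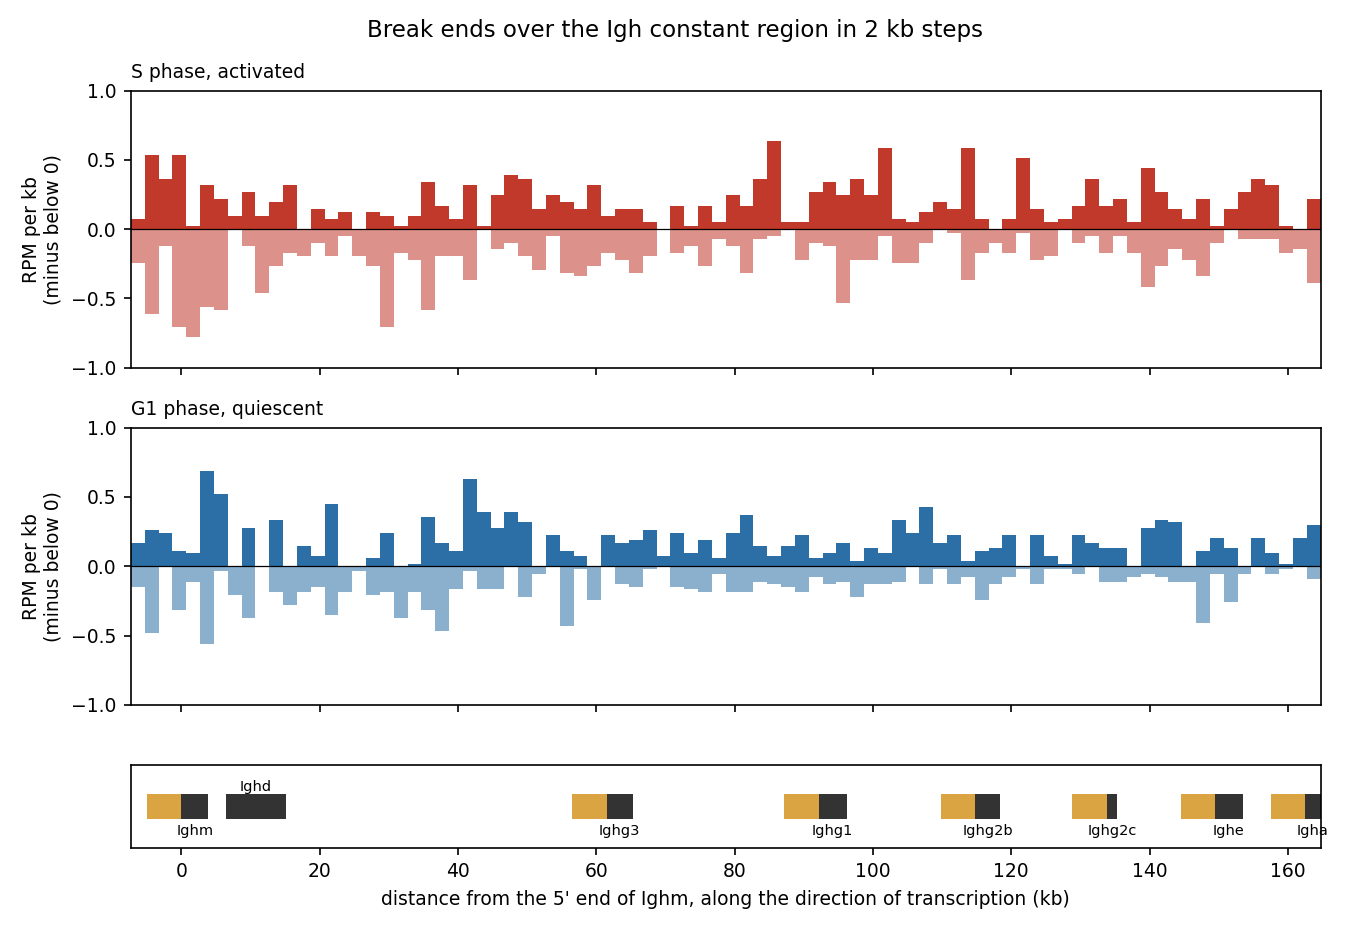
Break ends over the Igh constant region in 2 kb steps, as RPM per kb against the distance from the 5′ end of Ighm in kb, drawn in the direction of transcription. Plus-strand reads are above and minus-strand reads below 0, with S phase in red, G1 phase in blue, constant genes as dark boxes and switch-side spans as ochre boxes. The S-phase library is highest on the minus strand around Ighm, and no span rises as a sharp peak above the rest of the region in either library.

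By parts, the ratio was higher over the constant genes and their upstream spans than over the sequence between them. The 7 spans of the genes with a switch region held 324 S-phase and 258 G1 reads, on 125 and 72 positions. Their ratio was 1.64 (1.39 to 1.94) by reads and 1.65 (1.23 to 2.24) by positions. The 8 gene bodies, on 103 and 62 positions, had a ratio of 1.38 (1.16 to 1.65) by reads and 1.58 (1.14 to 2.20) by positions. Without the Ighm span, the other 6 stood at 1.498 (1.23 to 1.83) by reads and 1.37 (0.971 to 1.94) by positions, an interval that holds 1. The remaining 8 stretches, 105145 bp in all, held 838 and 955 reads on 331 and 286 positions, a ratio of 1.15 (1.05 to 1.26) by reads and 1.10 (0.936 to 1.29) by positions. The intervals by position overlap, and the difference between these parts was not tested.

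A gene or span with at least 20 reads in both libraries together was called when its ratio was 1.5 or more, or 0.667 or less. Of 16 genes and spans 15 had enough reads, of which 6 were called higher in S phase and 1 lower. Of 477957 windows of 5 kb on chromosomes 1 to 19, 20.6% were higher and 19.5% lower by the same rule. The 6 were the spans of Ighm, Ighg3, Ighg2b and Igha and the bodies of Ighm and Ighg1, and the 1 was the body of Ighg2b. Counting intervals over reads are too narrow here, since they lay wholly above 1 in 17.7% and wholly below 1 in 16.7% of all windows. By positions the intervals lay wholly above 1 in 2.54% and wholly below 1 in 2.42% of windows. By positions 3 of the 16 genes and spans had an interval wholly above 1, namely the spans of Ighm and Ighg3 and the body of Ighg1, and none had one wholly below 1.

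The same count was made over the region cut into 34 windows of 5 kb from its left end, a division added after the values were seen. Of these, 12 (35.3%) passed 1.5-fold upwards in S phase and 3 (8.82%) downwards, and 25 of 34 had a ratio above 1. The S-phase reads per window ran from 16 over a median of 39.5 to 96, and the G1 reads from 12 over 39.0 to 87. By positions the numbers were again 12 and 3, against 18.7% and 15.3% of all windows with at least 10 positions.

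**Figure D2:**
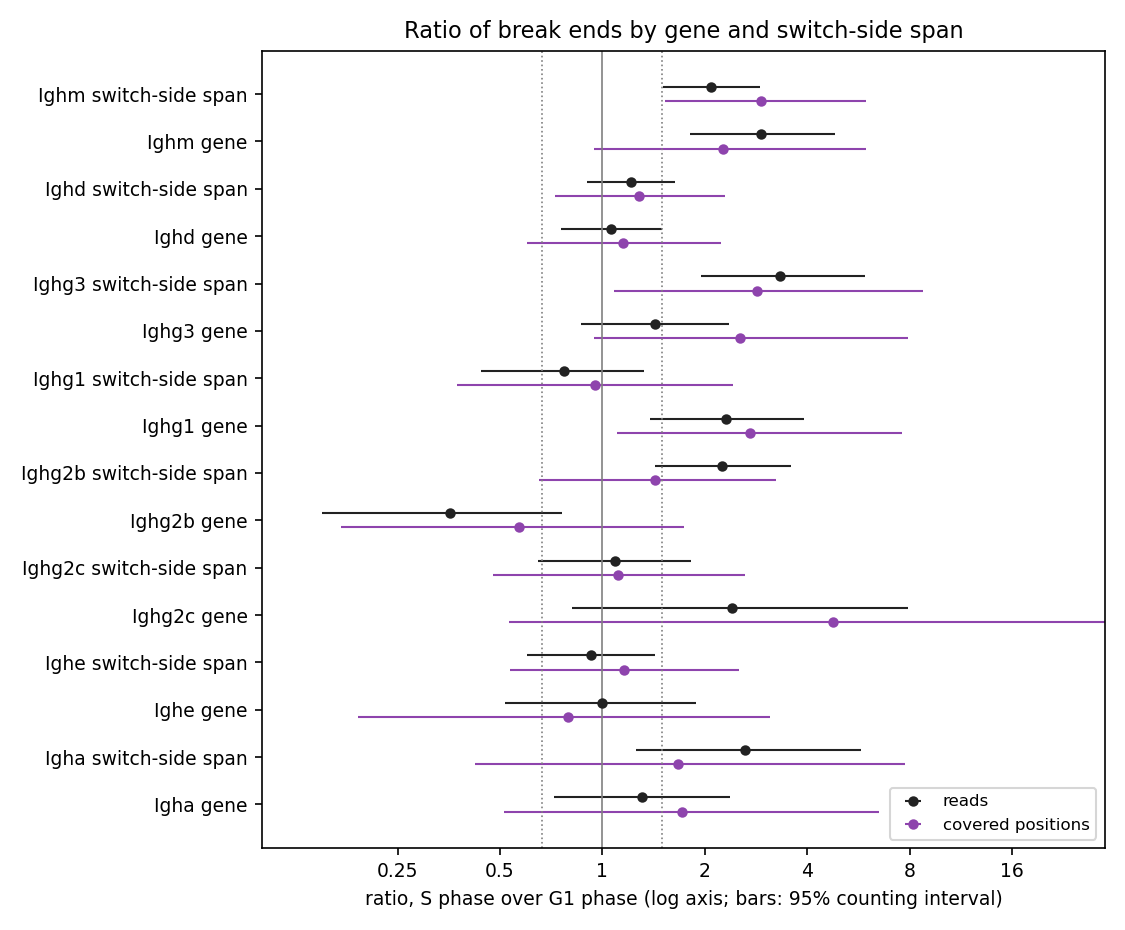
Ratio of S phase over G1 phase on a log axis for each constant gene and each 5 kb switch-side span, by reads (black) and by covered positions (purple), with 95% counting intervals and dotted lines at 1.5 and 0.667. The spans of Ighm and Ighg3 and the Ighg1 body have both intervals above 1, and the position interval of the Ighg2c body runs beyond the axis, to 225.

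Of all switch-side spans, that of Ighm, on the side of the donor switch region, held the most S-phase ends per kb. The gap between Ighd and Ighm, which is not one of these spans, held more, at 1.09 RPM per kb in S phase and 1.26 in G1 phase. The span of Ighm, the constant gene of IgM (span 113422731 to 113427730), had 102 S-phase and 64 G1 reads, or 0.993 and 0.476 RPM per kb. Its ratio was 2.09 (1.51 to 2.90), and 7.57% of all 5 kb windows were as high or higher. On positions the libraries stood further apart, at 40 (S phase) and 13 (G1 phase). That ratio was 2.93 (1.53 to 5.96), which 1.44% of windows reached. Both strands were higher in S phase, with 48 and 26 plus-strand reads (2.42, 1.47 to 4.06) and 54 and 38 minus-strand reads (1.86, 1.21 to 2.90). The most reads at 1 position were 6 in S phase and 11 in G1 phase, so no large stack made up the S-phase value.

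The body of Ighm (113418826 to 113422730) followed, with 58 S-phase and 26 G1 reads. Its ratio was 2.92 (1.81 to 4.83) by reads and 2.26 (0.944 to 5.96) by positions, from 19 and 8. Here the strands did not go together. The minus strand had 47 S-phase and 11 G1 reads (5.59, 2.86 to 11.96), whereas the plus strand had 11 and 15 (0.960, 0.399 to 2.24). Widened by 2 kb on both sides, the body stood at 1.57 (1.22 to 2.02). Gene and span together held 59 S-phase and 21 G1 positions, a ratio of 2.67 (1.60 to 4.63).

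In steps of 1 kb the S-phase excess ran through most of the Ighm span. The kilobase next to the gene had 12 S-phase and 5 G1 positions. The next had 5 and 0, from 10 and 0 reads. With the empty library set to 3 reads this is 4.36 times higher, and the counting interval starts at 2.93. The following steps had 4 and 2, 9 and 2, and 10 and 4 positions, so S phase led in all 5 by positions. By reads the step at 2 to 3 kb was level, with 10 S-phase and 13 G1 reads (1.01, 0.395 to 2.49). The step at 4 to 5 kb had 27 and 24 reads (1.47, 0.818 to 2.67). In the other steps of the span the interval by reads lay above 1. In the 2270 bp between this span and the end of the region, which hold Ighj1 to Ighj4, there were 17 S-phase and 20 G1 reads, on 6 and 4 positions. A difference in this J-segment stretch was not detectable at this depth (1.11, 0.547 to 2.24).

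**Figure D3:**
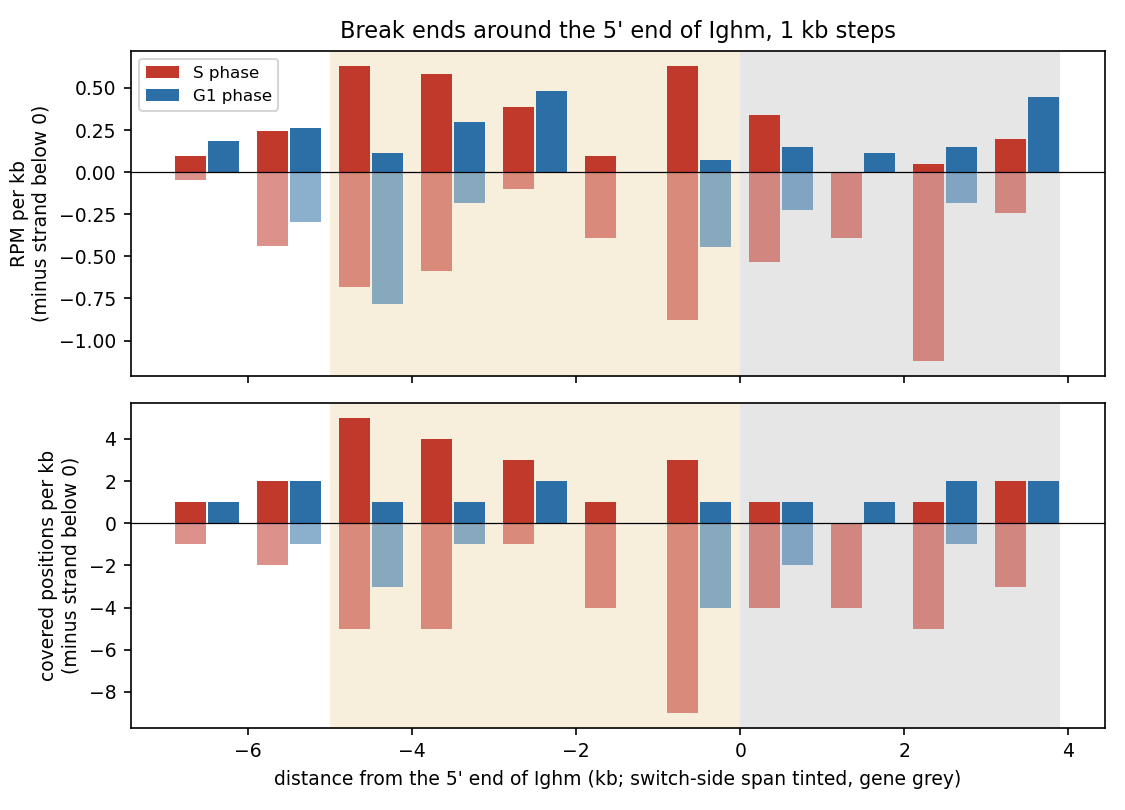
Break ends in steps of 1 kb around the 5′ end of Ighm, with distance in kb on the x axis, in RPM (top) and in covered positions (bottom, not scaled to depth), plus strand above and minus strand below 0. The ochre band is the switch-side span and the grey band the gene, and S phase (red) exceeds G1 phase (blue) in positions in each of the 5 steps of the span.

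Ighd, the constant gene of IgD, is expressed with Ighm by splicing and has no classical switch region. Its body (113407535 to 113416324) was level, with 65 S-phase and 80 G1 reads, a ratio of 1.06 (0.755 to 1.49), on 23 and 19 positions. The 2501 bp between Ighd and Ighm were the densest part of the region in G1 phase, at 1.26 RPM per kb against 1.09 in S phase. That gap had 56 and 85 reads on 19 and 19 positions, a ratio of 0.862 (0.604 to 1.22). Within it the strands diverged by reads. The plus strand had 19 S-phase and 53 G1 reads (0.469, 0.262 to 0.806), and the minus strand 37 and 32 (1.51, 0.917 to 2.51). The 5 kb taken upstream of Ighd run through this gap into Ighm, and stood at 1.22 (0.904 to 1.63).

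Ighg3, the constant gene of IgG3, had the highest ratio of all 5 kb spans by reads, though not by positions. Its span (113361233 to 113366232) had 51 S-phase and 20 G1 reads, a ratio of 3.34 (1.96 to 5.91) that 1.48% of 5 kb windows reached. The positions were 18 and 6, a ratio of 2.85 (1.08 to 8.78). The G1 level of this span, 0.149 RPM per kb, was under its level over the whole region, 0.317, and the S-phase level of 0.497 was above the 0.404 of the region. Both strands were higher in S phase, with 19 and 6 plus-strand and 32 and 14 minus-strand reads. The body of Ighg3 (113357442 to 113361232) had 36 and 33 reads on 16 and 6 positions, a ratio of 1.43 (0.865 to 2.36) by reads and 2.54 (0.942 to 7.91) by positions. The ratio of the Ighg3 span was 2.18 (1.11 to 4.45) over the nearest 3 kb and 1.68 (1.19 to 2.36) over 10 kb.

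Ighg1 and Ighe, the constant genes of IgG1 and IgE, are the known targets of switching under IL-4. The body of Ighg1 (113326541 to 113330523) had 44 S-phase and 25 G1 reads, a ratio of 2.30 (1.38 to 3.93). It had 20 and 7 positions (2.72, 1.10 to 7.60), and both strands were higher in S phase, at 2.24 and 2.38. The span of Ighg1 (113330524 to 113335523) did not share this, with 23 S-phase and 39 G1 reads and 11 positions in each. Its ratio was 0.772 (0.440 to 1.33), but it was 1.54 (0.766 to 3.13) over the nearest 3 kb and 1.44 (1.03 to 2.02) over 10 kb. No direction can therefore be given for the upstream side of Ighg1.

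At Ighe no difference was detectable at this depth. The body (113269263 to 113273248) had 19 S-phase and 25 G1 reads on 5 and 6 positions, a ratio of 0.995 (0.518 to 1.88). Its span (113273249 to 113278248) had 39 and 55 reads on 17 and 14 positions, 0.928 (0.600 to 1.42) by reads and 1.15 (0.536 to 2.53) by positions. The strands of the Ighe body went opposite ways, with 16 and 8 plus-strand reads and 3 and 17 minus-strand reads, on no more than 4 positions per strand and library.

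Ighg2b and Ighg2c encode the constant parts of IgG2b and IgG2c. The body of Ighg2b (113304314 to 113307933) was the lowest of the genes and spans, with 9 S-phase and 33 G1 reads, a ratio of 0.357 (0.150 to 0.763). Its positions were 6 and 10, a ratio of 0.570 (0.170 to 1.73), and with 2 kb on both sides it turned to 1.39 (0.922 to 2.10). The span next to it (113307934 to 113312933) went the other way, with 55 and 32 reads, 2.25 (1.43 to 3.60), although by positions it was 18 against 12, 1.43 (0.650 to 3.25). Over the nearest 3 kb that span stood at 4.19 (2.31 to 8.05) and over 10 kb at 1.34 (0.970 to 1.86). The body of Ighg2c (113287389 to 113288932) had 11 and 6 reads, under the minimum for a call. Its span (113288933 to 113293932) was level at 30 and 36 reads, 1.09 (0.649 to 1.82).

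Igha lies last in the direction of transcription, and its first 1797 bp in genome coordinates fall outside the region. The part inside (113258001 to 113260236) had 25 reads in each library, a ratio of 1.31 (0.721 to 2.38), on 9 and 5 positions. Its span (113260237 to 113265236) had 24 S-phase and 12 G1 reads, a ratio of 2.62 (1.26 to 5.74). This was the emptiest span in G1 phase, at 0.0893 RPM per kb, and its 7 and 4 positions give 1.66 (0.423 to 7.75), an interval that holds 1. Over the nearest 3 kb the ratio of the Igha span was 1.31 (0.428 to 4.00), below the size of a call.

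Ordered by ratio over positions, the spans ran Ighm, Ighg3, Igha, Ighg2b, Ighd, Ighe, Ighg2c and Ighg1, from 2.93 down to 0.951. The intervals of all neighbours in this order overlap, and that of Ighm overlaps that of Ighg1 at 0.374 to 2.42. Summed over the 7 genes with a switch region, the ratio was highest between 1 and 2 kb upstream of the 5′ end, at 2.28 (1.44 to 3.67), with 22 and 7 positions. It was 1.79 (1.27 to 2.54) in the kilobase before, 1.64 (1.12 to 2.42) at 2 to 3 kb, 1.47 (1.01 to 2.13) at 3 to 4 kb and 1.33 (0.911 to 1.95) at 4 to 5 kb. Between 5 and 6 kb it was 0.776 (0.496 to 1.20), but it was 1.88 (1.28 to 2.78) at 6 to 7 kb and 2.01 (1.37 to 2.96) at 9 to 10 kb. These are ratios by reads. The positions were 15 (S phase) and 18 (G1 phase) at 5 to 6 kb and 28 and 12 at 6 to 7 kb. At 9 to 10 kb they were nearly level, at 21 and 19. In the kilobase inside the 5′ end it was 1.70 (1.14 to 2.54). The ratio did not fall steadily with distance. The step at 9 to 10 kb covered 6000 bp, against 7000 bp in the other steps named, because the upstream side of Ighm leaves the region before it. At Igha that step lay almost wholly in the Ighe body.

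By reads, the strands of the region differed in how far S phase exceeded G1 phase. The minus strand had 744 S-phase and 656 G1 reads, a ratio of 1.48 (1.33 to 1.65), and the plus strand 685 and 810, 1.11 (0.998 to 1.23). By positions these were 1.42 (1.18 to 1.71) and 1.13 (0.941 to 1.35), and the intervals overlap. A minus-strand ratio as high was seen in 0.586% of 172 kb windows by reads and in 1.54% by positions, and a plus-strand ratio as high in 28.1% and 25.9%. The plus strand held 47.9% (45.3 to 50.6) of S-phase reads and 55.3% (52.7 to 57.8) of G1 reads, a difference of −7.32 points. Such a difference or a lower one was found in 4.30% of all windows by reads. By positions it was −5.75 points, with 5.55% of windows as low or lower.

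Among single parts the share of reads on the plus strand differed in both directions. In the Ighm body 18.97% (9.87 to 31.4) of S-phase reads and 57.7% (36.9 to 76.6) of G1 reads were on the plus strand. The Ighe body went the other way, with 84.2% (60.4 to 96.6) and 32.0% (14.9 to 53.5). In the span of Ighm, by contrast, both strands took part in each library, with 47.1% (37.1 to 57.2) and 40.6% (28.5 to 53.6). Exact intervals here count reads and are too narrow where reads are stacked. By positions, the shares in the Ighm body were 15.8% (3.38 to 39.6) and 62.5% (24.5 to 91.5), and these intervals overlapped. The position intervals of the libraries also overlapped at the bodies of Ighe and Igha and at the Ighd span. For the whole region the plus strand held 47.6% (43.4 to 51.8) of S-phase positions and 53.3% (48.4 to 58.2) of G1 positions. Those intervals overlapped as well, so the libraries stood apart over the region by reads only.

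**Figure D4:**
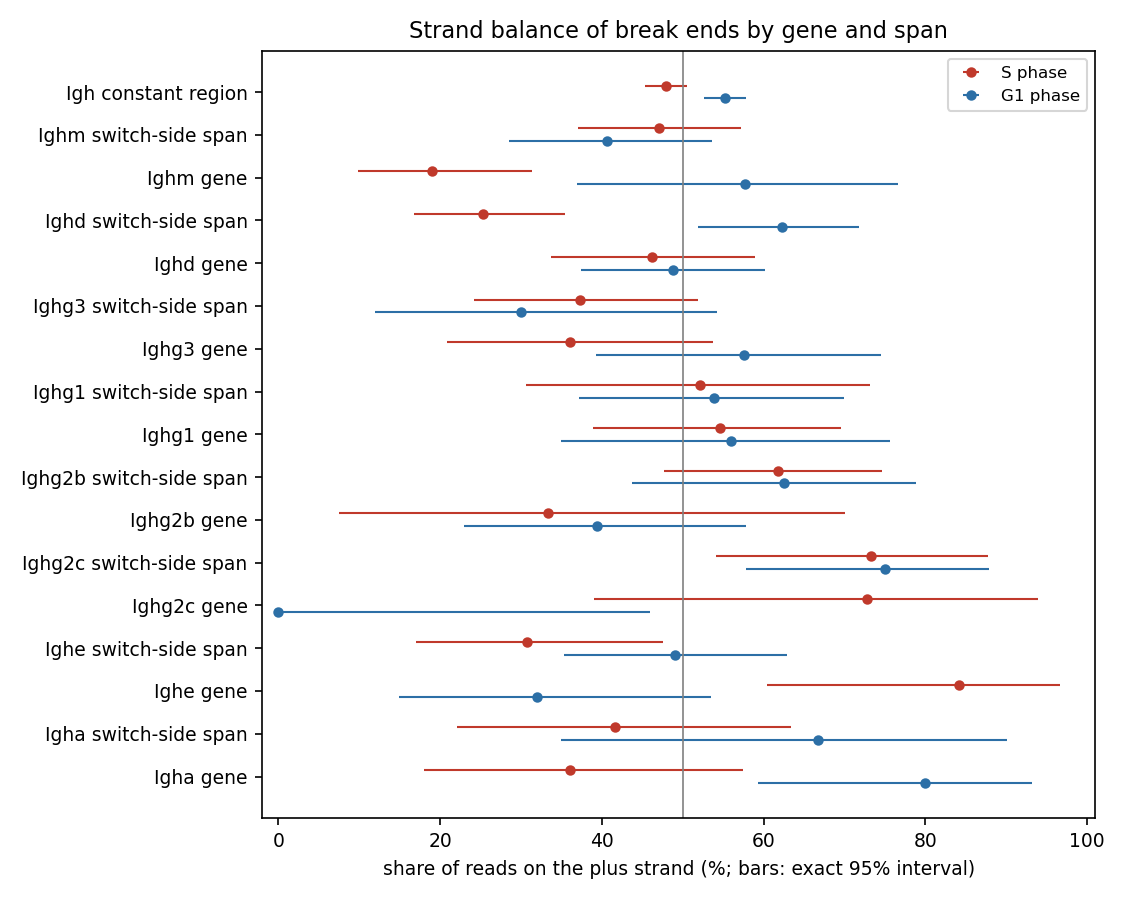
Share of reads on the plus strand in percent for the whole region, each constant gene and each switch-side span, in S phase (red) and G1 phase (blue), with exact 95% intervals. By reads, the libraries stand apart without overlap at the whole region, at the bodies of Ighm, Ighe and Igha and at the Ighd span, which runs into Ighm.

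Single bins of 500 bp held few reads. On the plus strand 46 of 344 bins and on the minus strand 44 had at least 10 reads in both libraries together, 13.4% and 12.8%, against 13.8% and 13.7% of bins on chromosomes 1 to 19. A bin was called when its ratio was 2 or more, or 0.5 or less, with an empty library set to 3 reads. On the plus strand 12 bins (26.1%) were higher and 16 (34.8%) lower, where 21.6% and 42.9% of all tested bins were. On the minus strand 14 (31.8%) were higher and 11 (25.0%) lower, where 21.5% and 43.0% were. Among the called bins the other library was empty in 10 of the 26 higher and in 14 of the 27 lower ones.

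Even the fullest bins rest on few reads. On the minus strand the most S-phase reads, 18 against 0 in G1 phase, lay at 113392501 to 113393000, between Ighg3 and Ighd. The next were 17 and 5 reads at 113426501 to 113427000 in the Ighm span, and 15 and 2 at 113387501 to 113388000. The highest minus-strand ratio was 17.0, from 13 and 1 reads at 113380001 to 113380500, which overlaps the pseudogene Gm9134 (113379513 to 113381622). On the plus strand the fullest S-phase bin had 15 reads and 0 in G1 phase at 113300501 to 113301000, between Ighg2c and Ighg2b, followed by 14 and 11 reads at 113425501 to 113426000 in the Ighm span. In G1 phase the fullest bin of each strand was the same stretch, 113418501 to 113419000, where Ighm ends. It held 25 plus-strand and 20 minus-strand reads, against 6 and 7 in S phase, and all of them lay outside the gene, in the gap between Ighd and Ighm. No bin of the region held more than 25 reads on a strand in either library.

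Ends of the region were spread over many positions and seldom recurred. The libraries shared 6 strand-specific positions, 1.07% of those of S phase and 1.43% of those of G1 phase, against 1.83% and 1.93% over chromosomes 1 to 19. The reads per position were 2.56 and 3.49 in the region and 2.90 and 3.99 over chromosomes 1 to 19. The most reads at a position were 10 in S phase and 13 in G1 phase. Bins empty in both libraries made up 26.7% of the plus strand and 29.7% of the minus strand, and 30.7% of each over chromosomes 1 to 19. The longest stretch without an end in either library was 1553 bp (113260995 to 113262547) in the Igha span, and one of 1275 bp (113424063 to 113425337) lay in the Ighm span. How far reads can be placed in the switch repeats was not tested.

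Genes whose products act in class switching were counted as DNA with 2 kb on both sides, from a list of 32 that were all matched. Of these 5 were called higher in S phase at 1.5-fold and none lower, while 15.8% of 46602 genes with enough reads were higher and 9.08% lower. The share of 5 in 32 is thus close to that of all genes. The list's median ratio was 1.20, and that of all genes 1.08. The highest were Exosc3, a subunit of the RNA exosome, with 88 S-phase and 57 G1 reads (2.02, 1.43 to 2.87), and Mad2l2, a part of the shieldin pathway, with 265 and 185 (1.87, 1.55 to 2.27). The lowest was Rif1, which guards broken ends from resection, with 422 and 738 (0.748, 0.662 to 0.845). The highest and lowest were taken by reads. By positions Rif1 stood at 0.939 (0.750 to 1.18) and Exosc3 at 1.78 (0.941 to 3.50), intervals that hold 1, and Mad2l2 at 1.46 (1.02 to 2.10).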

How the data were processed

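Each library has a plus-strand and a minus-strand bedGraph track, per the file headers, in which the authors deposited unnormalized counts of read ends for every covered base. The submitters' processing notes list the build mm10 with bedtools, SAMtools 1.11 and Bowtie 1.1.2. How these were set, and how duplicates and reads with several matches were handled, is not given in the sources used here, and such reads can matter in switch repeats. Counts were summed per strand (Python 3.11.15, pandas 2.3.3, numpy 2.4.6) and scaled to chromosomes 1 to 19. Gene positions are those of RefSeq on GRCm38.p6, which mm10 represents. Ratios carry conditional exact Poisson 95% intervals and shares exact Clopper-Pearson 95% intervals (scipy 1.17.1), which cover counting error only. There were no molecular identifiers. A count of 0 allows up to 3 reads, 0.146 RPM in S phase and 0.112 in G1 phase. The code was tested on simulated counts, and plots used matplotlib 3.10.9. No genome sequence was used here. The text names all constant genes and spans, bins from the 5 fullest per strand and library and the 3 highest and lowest ratios, and the 2 highest and lowest class switch genes, of which 1 is not reported here. Members and lists were chosen with earlier results of these data known.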

Additional observations from a re-analysis of the deposited data

How the results depend on the processing

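The whole region kept a ratio above 1 under each of 8 alternatives of scaling, strand and counting, with 1.11 on the plus strand alone and 1.48 on the minus strand alone. The number of genes and spans called higher, 6, ran from 5 to 8 over 11 alternatives, but not always with the same members. The Igha span dropped out at 3 kb (1.31), the Ighg2b span by positions and at 10 kb, and the Ighm body on the plus strand. The Igha span was also not called by positions (1.66), on the plus strand (1.64) or on the minus strand (4.58). There it had fewer than the 20 counts needed, while its ratio stayed above 1.5. The 1 called lower became 0 with each position counted once, 0 with gene bodies widened by 2 kb, 2 on the minus strand and 3 on the plus strand. By positions that Ighg2b body kept a ratio of 0.570 but had too few positions for a call. Of 150 values of single genes and spans 15, of 9 genes and spans, lay on the other side of 1. Among them were 3 of values past 1.5-fold, namely the Ighg2b body with 2 kb on both sides (1.39), the Ighg2c body on the minus strand (0.654) and the Ighm body on the plus strand (0.960). These 3 also lay outside the counting interval of the main value, and apart from them 18 of the 150 values did. For the 500 bp bins, 12 and 14 higher (plus and minus strand) became 0 and 1 with at least 20 reads and 45 and 43 with at least 5. The 16 and 11 lower bins became 2 and 1, and 31 and 23. With each position counted once, 0 were called in either direction on either strand, and with 1000 bp bins 22 were higher on the minus strand. Bins of 2000 bp left 6 lower on the minus strand, and a 3-fold size left 7 lower on the plus and 5 on the minus strand. The stricter rules leave fewer bins to call, and the causes of the other changes were not tested. A run of AGCT motifs in place of the 5 kb span was not run, since no genome sequence was used here. No paired analysis was possible because each group is 1 library, and no replicate could be left out. Depth limits the bins and most genes and spans, which hold under 60 reads per library.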

Other observations

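Outside genes and spans, the stretches towards the Igha side of the region had the higher ratios by reads, and the difference between stretches was not tested. From 113278249 to 113287388, beyond the Ighe span, there were 88 S-phase and 63 G1 reads, a ratio of 1.83 (1.31 to 2.57), with 27 and 15 positions. Its minus strand had 43 and 17 reads (3.31, 1.85 to 6.19). From 113293933 to 113304313, beyond the Ighg2c span, the ratio was 1.84 (1.23 to 2.78) by reads, but the positions were 30 and 29. From 113312934 to 113326540 it was 1.34 (1.03 to 1.75), and from 113335524 to 113357441 1.09 (0.864 to 1.37). The longest stretch, 113366233 to 113407534 between the Ighg3 span and Ighd, holds the pseudogenes Gm9134, Gm9136 and Gm5190. It had 328 and 437 reads, a ratio of 0.982 (0.849 to 1.14), on 132 and 118 positions.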
